A study of Mus musculus with 4 samples.

Results

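The platelet-derived growth factor (PDGF) family was examined in mouse ureter as 7 genes, the receptors Pdgfra and Pdgfrb, the receptor-like gene Pdgfrl and the ligands Pdgfa, Pdgfb, Pdgfc and Pdgfd. They were chosen by name among the 19296 genes of the array, each read from its brightest probe set with a single gene symbol. All 7 were present, each with 1 such probe set. Total RNA came from the ureter of 4 males whose strain background mixed 129Sv with C57BL6, with 1 array per mouse and no pooling. The 2 wild type mice had the genotype miR-143/145+/+, were 4.5 months old and had normal kidneys. The 2 knockout mice had the genotype miR-143/145-/-, were 2.5 months old and had hydronephrosis, in which the kidney swells with urine that cannot drain. Age and kidney state differ along with genotype and cannot be told apart, and every difference below is between these groups of mice.

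PDGF ligands are dimers that bind a pair of receptor tyrosine kinases on mesenchymal cells and drive their division, migration and matrix production. PDGF-A and PDGF-C act mainly through the receptor encoded by Pdgfra, PDGF-D mainly through that of Pdgfrb, and PDGF-B through both. In organs with a muscular wall, Pdgfra marks interstitial fibroblasts, and Pdgfrb marks pericytes and vascular smooth muscle cells. Pdgfra has been reported as a target of the deleted microRNAs, and Pdgfrb lies near their gene cluster.

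The sequences just before the transcription start are shown for Pdgfd, the member that passed the test, for Pdgfra, the receptor with the smallest p, and for Pdgfc, the ligand built most like Pdgfd. The windows hold the 250 bases before the start in RefSeq's GRCm38.p6 table, which held printable entries for 4 of the 7 members; the fourth, Pdgfa, is not shown. Capitals mark matches, on either strand, to 5 motifs: the TATA box motif TATAAA, the motif CCAAT bound by NF-Y, the GC box motif GGGCGG, the AP-1 motif TGANTCA and the CArG box, which serum response factor binds.

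Pdgfd (chr9:6168236-6168485, plus strand): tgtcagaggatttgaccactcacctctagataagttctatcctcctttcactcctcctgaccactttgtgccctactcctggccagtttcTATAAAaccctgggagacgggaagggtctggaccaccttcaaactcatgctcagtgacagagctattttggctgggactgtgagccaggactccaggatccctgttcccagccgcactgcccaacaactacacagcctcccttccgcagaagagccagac

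Pdgfra (chr5:75152001-75152250, plus strand): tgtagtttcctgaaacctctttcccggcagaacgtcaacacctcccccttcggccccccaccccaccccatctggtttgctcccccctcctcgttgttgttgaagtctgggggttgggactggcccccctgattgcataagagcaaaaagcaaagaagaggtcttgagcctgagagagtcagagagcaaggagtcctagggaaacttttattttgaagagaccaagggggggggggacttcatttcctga

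Pdgfc (chr3:81036166-81036415, plus strand): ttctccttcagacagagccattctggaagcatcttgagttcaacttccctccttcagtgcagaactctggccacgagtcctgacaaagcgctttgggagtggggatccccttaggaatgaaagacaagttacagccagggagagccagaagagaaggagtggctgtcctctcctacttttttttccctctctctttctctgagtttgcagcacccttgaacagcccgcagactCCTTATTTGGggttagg

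The Pdgfd window held TATAAA once, beginning 160 bases before the start, and no other searched motif. TATAAA was found in 12.4% of all 32851 windows of this length. The Pdgfc window held a CArG box at 1 place, beginning 17 bases before the start, as did 1.47% of all windows. Pdgfa had 2 windows, with GGGCGG at 1 place in one and at 2 places in the other, and no other searched motif. The Pdgfra window held none of the 5 motifs; CCAAT occurred in 33.8%, GGGCGG in 32.7% and TGANTCA in 6.75% of all windows. These matches describe letters, and no binding was measured.

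Across the arrays the median log2 value lay between 7.81 and 7.89, and the number of arrays limits the precision. The deleted genes were low where the labels say so. Mir145a measured 8.28 and 8.42 in wild type mice, against 4.60 and 5.02 in knockout mice, and Mir143 measured 7.64 and 7.85 against 6.48 and 6.53, on the log2 scale. All 4 of these knockout values were below the background level of 6.58, the 95th percentile of olfactory receptor genes. All markers of smooth muscle (18 of 18) and urothelium (23 of 23) lay above background and so did all 14 tested adipocyte markers.

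Of the 7 PDGF genes, Pdgfd rose in knockout ureter, 2.18-fold, and 6 did not pass an adjusted p of 0.05 (limma, Benjamini-Hochberg over all genes). Over all genes 2.38% passed, 1.90% as higher and 0.477% as lower. With p left unadjusted, 26.5% of all genes were under 0.05, 12.7% as higher and 13.8% as lower, and the unadjusted counts of the lists below are to be read against these shares. Pdgfra and Pdgfrl had higher values in both knockout mice without passing, and Pdgfrb, Pdgfa, Pdgfb and Pdgfc had overlapping values. Both knockout values lay above both wild type values for 3 of the 7, which 28.0% of all genes also did, and both lay below for none of them, against 32.0% of all genes. The 2 genotypes were thus apart for 3 of the 7, against 60.0% of all genes. The knockout mean was higher for 5 of the 7, against 47.1% of all genes. All 7 lay above background on all 4 arrays. The median log2 difference was 0.10 over the 7 genes and -0.02 over all genes. In whole tissue, more cells of a type and more RNA per cell cannot be told apart.

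**Figure D1:**
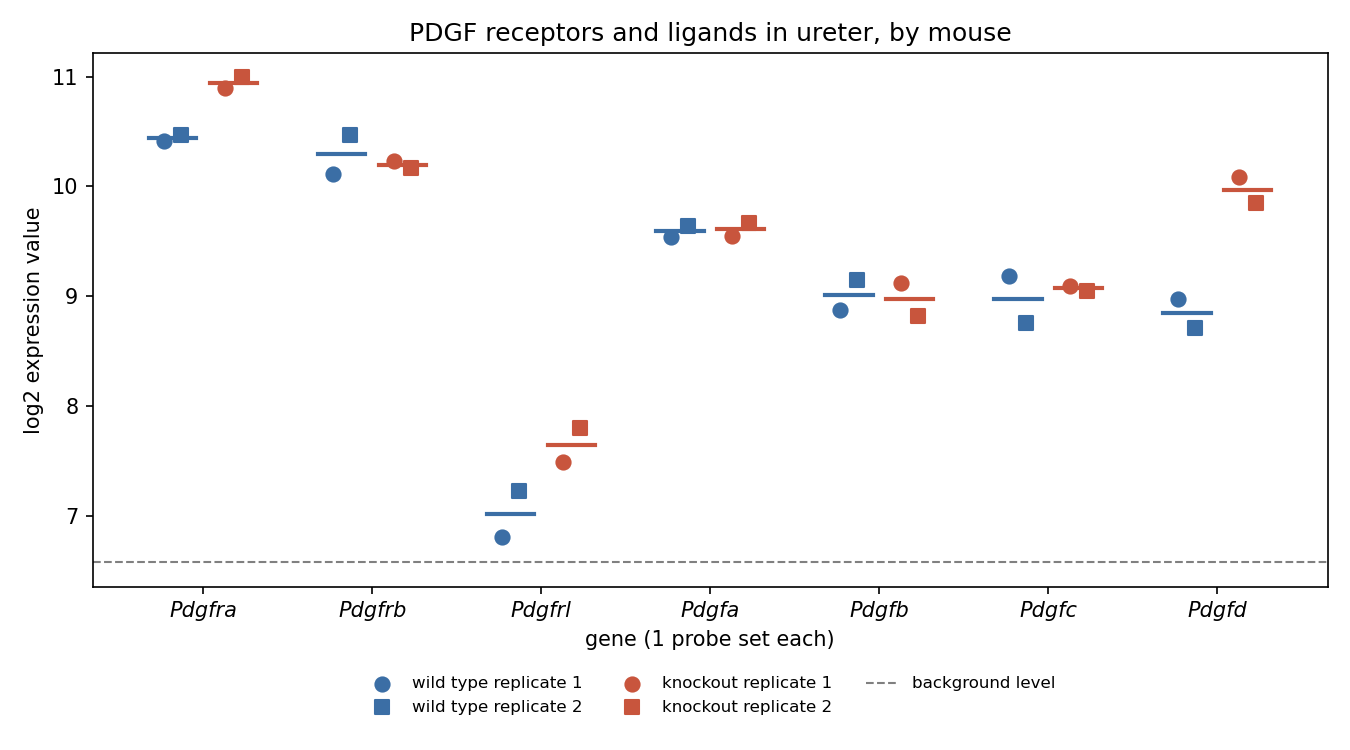
Log2 expression value (vertical axis) of the 7 PDGF genes (horizontal axis) in each mouse; circles and squares are replicates 1 and 2, horizontal bars are genotype means and the dashed line is the background level of 6.58. The 2 knockout values of Pdgfd, 10.08 and 9.85, lie well above the wild type values of 8.98 and 8.71, while the groups overlap for Pdgfrb, Pdgfa, Pdgfb and Pdgfc; heights of different genes are not comparable.

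Pdgfd encodes PDGF-D, which is secreted in latent form with a CUB domain that must be cut off before the growth factor can bind its receptor. Its log2 value was 8.98 in the first and 8.71 in the second wild type mouse, and 10.08 and 9.85 in the knockout mice. Both knockout mice were high, and the groups did not overlap. The means were 8.84 ± 0.19 and 9.97 ± 0.16 (SD, n = 2 each). The log2 difference was 1.12 (SE 0.15, limma adjusted p = 0.0274), a fold of 2.18 with a 95% interval of 1.72 to 2.77, and its unadjusted p ranked 79 among 19296 genes. The call held when either knockout mouse was left out, with adjusted p = 0.00467 without knockout replicate 1 and 0.00201 without knockout replicate 2. It was lost without wild type replicate 1 (difference 1.26, adjusted p = 0.183) and without wild type replicate 2 (difference 0.99, adjusted p = 0.214). Limma passed 0 of all genes in these last fits, with 4253 and 3079 at an unadjusted p under 0.05, so every call given below is lost in them as well. Without knockout replicate 1, in contrast, 9.04% of all genes passed, and 2.95% without knockout replicate 2.

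Pdgfc encodes the other latent, CUB-bearing ligand. It measured 9.19 and 8.75 in wild type ureter, against 9.10 and 9.05 in knockout. Both knockout values lay between the wild type ones, and the difference was 0.10 (SE 0.16, adjusted p = 0.724), with a 95% interval of the fold from 0.824 to 1.39.

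Pdgfa and Pdgfb encode the classical ligands, which are cut inside the cell and secreted ready to bind. Pdgfa measured 9.54 and 9.64 in wild type mice, against 9.55 and 9.67 in knockout mice, so its replicates differed more than its genotypes. The difference was 0.02 (SE 0.12, adjusted p = 0.940; fold interval 0.834 to 1.23) and became -0.05 with arrays centred on their medians and -0.07 with a further quantile normalization. Pdgfb, which endothelial cells make to recruit pericytes, measured 8.87 and 9.15 in wild type mice, against 9.12 and 8.82 in knockout mice. These values also overlapped, with a difference of -0.04 (SE 0.16, adjusted p = 0.902; fold interval 0.755 to 1.26). The upper ends of the intervals of Pdgfa, Pdgfb and Pdgfc lay below the lower end of that of Pdgfd, 1.72; the difference between their changes and that of Pdgfd was not tested.

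Pdgfra measured 10.41 and 10.47 in wild type mice, against 10.90 and 10.99 in knockout mice. Replicates lay close together and the groups did not overlap. The means were 10.44 ± 0.04 and 10.94 ± 0.07 (SD, n = 2 each), a difference of 0.51 (SE 0.12) and a fold of 1.42 with an interval of 1.18 to 1.72. It did not pass (adjusted p = 0.0658), and leaving out each mouse in turn gave differences of 0.46 to 0.56 without a call.

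Pdgfrb measured 10.12 and 10.47 in wild type mice, against 10.23 and 10.16 in knockout mice. The wild type mice bracketed the knockout mice, and the difference was -0.10 (SE 0.15, adjusted p = 0.712; fold interval 0.736 to 1.19). The sign of Pdgfrb rested on wild type replicate 2, without which the difference was 0.08 (adjusted p = 0.789).

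Pdgfrl encodes a protein that resembles the extracellular part of the receptors and has no kinase domain. It lay close to the background level of 6.58 and measured 6.80 and 7.23 in wild type mice, against 7.49 and 7.80 in knockout mice. All knockout values were above the wild type values, and the difference was 0.63 (SE 0.18, adjusted p = 0.0934; fold 1.55, interval 1.15 to 2.07). Leaving out each mouse in turn gave differences of 0.42 to 0.84, and the side of the threshold depended on the mouse left out.

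**Figure D2:**
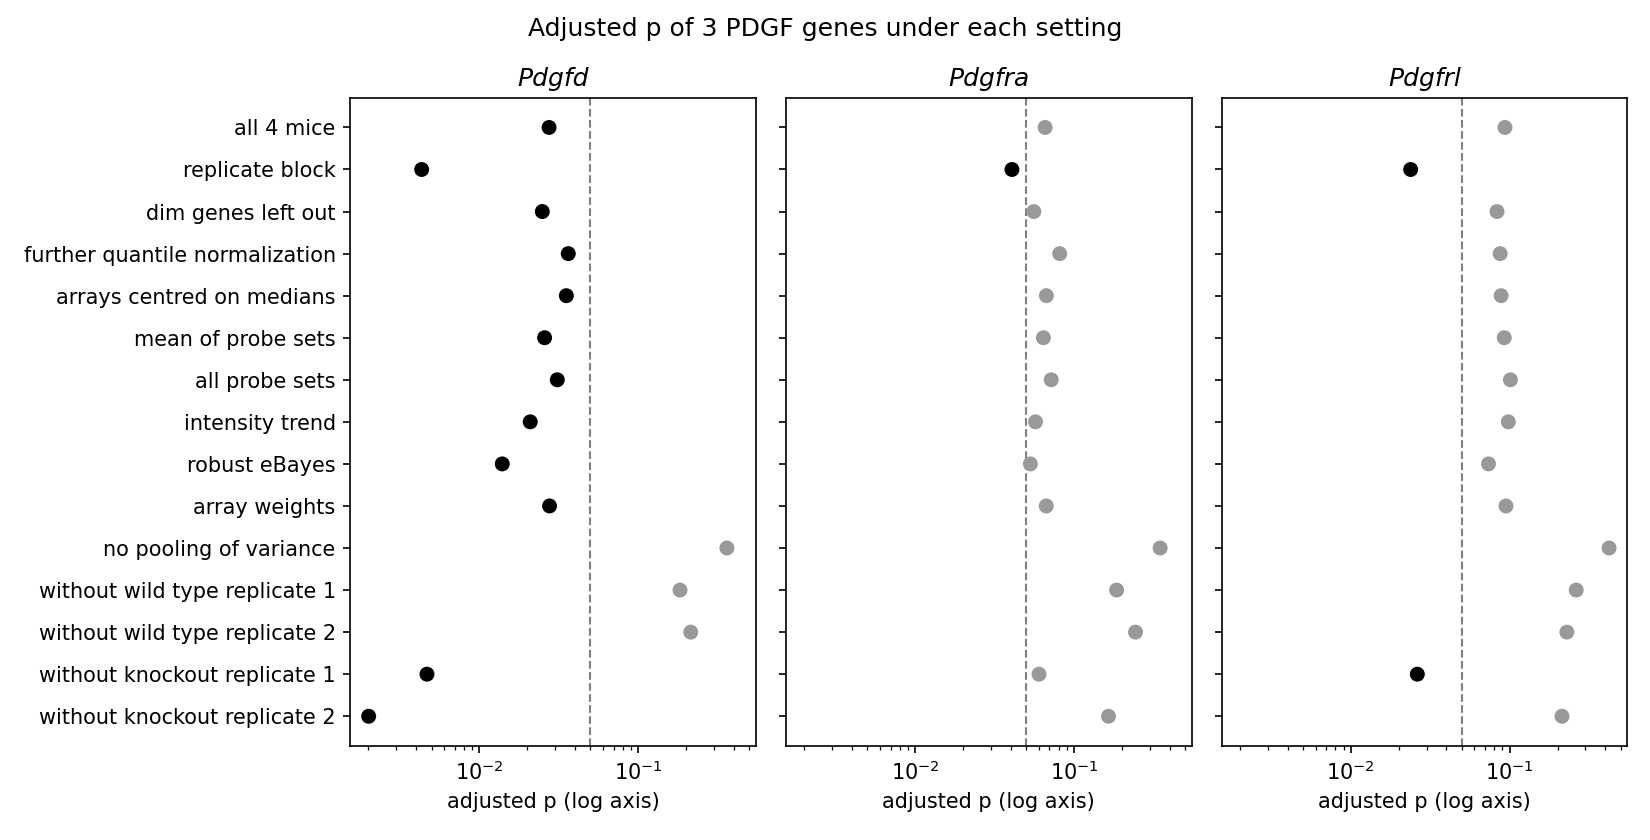
Adjusted p (horizontal log axis) of Pdgfd, Pdgfra and Pdgfrl under each setting of the analysis (vertical axis); the dashed line is 0.05 and black points are past it. Pdgfd is past the line in 12 of the 15 settings drawn, Pdgfra in 1 and Pdgfrl in 2.

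Pathway genes were taken from 5 lists. Outside the cell, PDGF ligands are activated by proteases and held by matrix proteins. Of 18 tested genes for activation and binding, 1 rose, and 17 missed the threshold; the median difference was 0.08. Thbs1, encoding the matrix glycoprotein thrombospondin 1, rose from 10.43 and 10.44 in wild type to 11.23 and 11.44 in knockout (difference 0.90, SE 0.12, adjusted p = 0.0319). Plau encodes urokinase and St14 matriptase, the proteases known to cut PDGF-D. Plau measured 9.32 and 9.64 in wild type mice, against 10.07 and 10.44 in knockout mice, a difference of 0.77 (adjusted p = 0.0638). St14 measured 9.23 and 9.51 against 9.88 and 10.22, a difference of 0.68 (adjusted p = 0.0704). Neither passed with all 4 mice, though the groups did not overlap, as was so for 60.0% of all genes. St14 is an epithelial gene, and the urothelium markers given below were also higher in knockout; their part in these values was not tested. Nrp1, a coreceptor for growth factors of this superfamily, differed by -0.61 (adjusted p = 0.112).

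**Figure D3:**
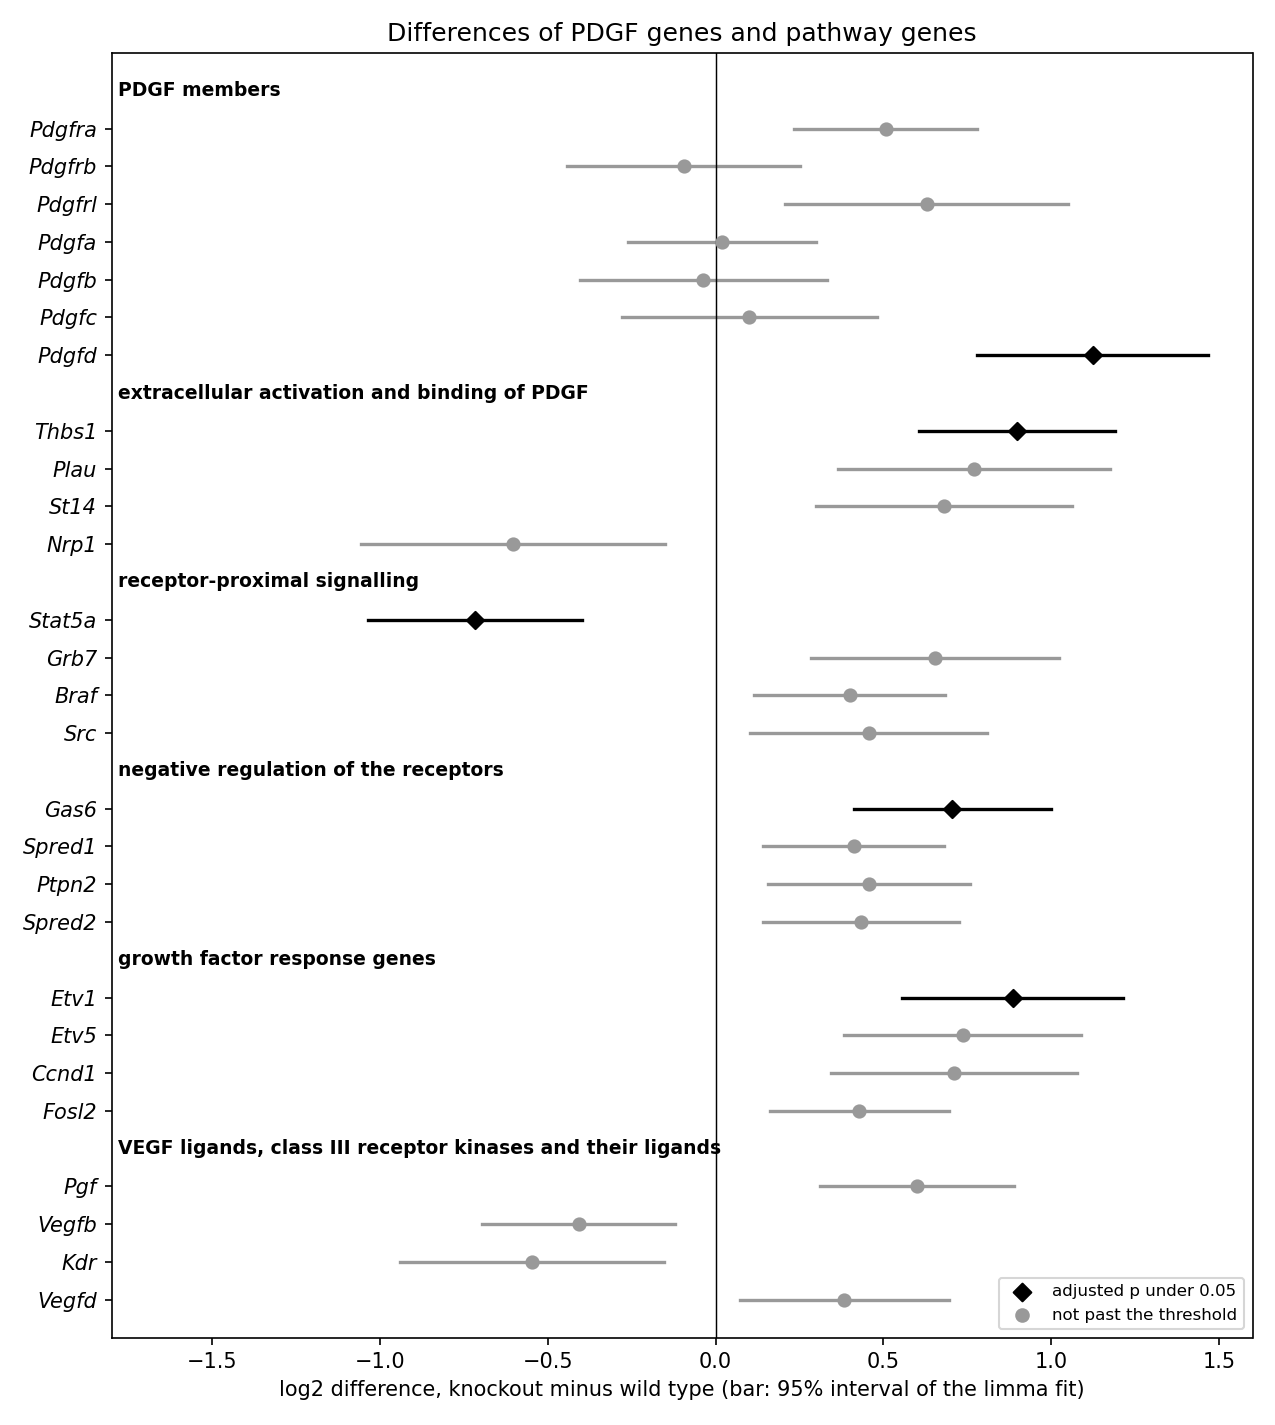
Log2 difference, knockout minus wild type (horizontal axis), of the 7 PDGF genes and of the named genes of the 5 pathway lists (vertical axis); bars are 95% intervals of the limma fit and black diamonds passed an adjusted p of 0.05. Pdgfd at 1.12 has the largest difference of the genes drawn, and Stat5a at -0.72 is the only fall among them that passed.

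Inside the cell, the activated receptors bind adaptors, lipid kinases and STAT factors. Of 34 tested genes of receptor-proximal signalling, 1 fell, 0 rose and 33 did not pass (limma; without adjustment of p, 4 were higher and 3 lower, a smaller share than the 26.5% of all genes), with a median difference of 0.06. Stat5a, a transcription factor activated by cytokine and growth factor receptors, fell from 9.95 and 10.05 to 9.42 and 9.15 (difference -0.72, SE 0.13, adjusted p = 0.0499). That call was also lost without knockout replicate 2 (adjusted p = 0.0881), with array weights (0.0515), with all probe sets (0.0562) and with a further quantile normalization (0.0532). Grb7, an adaptor, differed by 0.65 (adjusted p = 0.0714), and the kinase genes Src and Braf by 0.46 and 0.40 (adjusted p = 0.118 and 0.103). Grb7 measured 8.55 and 8.91 in wild type mice, against 9.29 and 9.48 in knockout mice. Src measured 8.82 and 8.95 against 9.17 and 9.52.

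Of 21 tested genes listed as negative regulators of the receptors, 1 rose and 20 missed the threshold, at a median of 0.11. The gene that rose was Gas6, whose product is known as the ligand of the Axl and Mertk kinases rather than as an inhibitor of PDGF receptors. It went from 10.44 and 10.61 to 11.17 and 11.28 (difference 0.71, SE 0.12, adjusted p = 0.0448), and its call was lost without knockout replicate 2 (adjusted p = 0.0658), with all probe sets (0.05004), with arrays centred on their medians (0.0503) and with a further quantile normalization (0.0629). Among inhibitors, the phosphatase gene Ptpn2 differed by 0.46, and Spred1 and Spred2, which restrain the Ras pathway, by 0.41 and 0.43. None of these passed (adjusted p = 0.0916, 0.0907 and 0.0934).

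Genes induced by growth factor signalling were split evenly, 13 with a higher and 13 with a lower mean in knockout, with a median of 0.01. The list averaged 8.55 and 8.85 in wild type mice, against 8.77 and 8.84 in knockout mice. The wild type mice thus bracketed the knockout mice, and the split rests on both of them. Of the 26 genes, 1 rose and 25 missed the threshold. By an unadjusted p under 0.05 (limma), 6 were higher and 3 lower, beside 12.7% and 13.8% of all genes. Etv1, an ETS transcription factor, rose from 8.05 and 7.996 to 8.75 and 9.06 (difference 0.88, SE 0.14, adjusted p = 0.0368), which did not pass after a further quantile normalization (adjusted p = 0.0577). The related Etv5 differed by 0.74 (adjusted p = 0.0557), the cell cycle gene Ccnd1 by 0.71 (adjusted p = 0.0614) and Fosl2 by 0.43 (adjusted p = 0.0825). Etv5 and Ccnd1 passed as higher without knockout replicate 1 (adjusted p = 0.00762 and 0.00552), as did 5 genes of the list in all.

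The VEGF ligands and the receptor kinases of the same superfamily had a median of -0.09. Of these 16 genes 0 passed by limma, against 3 higher and 3 lower genes by an unadjusted p under 0.05, beside 12.7% and 13.8% of all genes. Pgf, placental growth factor, differed by 0.60 (adjusted p = 0.0562) and Vegfd by 0.38 (adjusted p = 0.129), while Vegfb differed by -0.41 (adjusted p = 0.101) and the endothelial receptor gene Kdr by -0.55 (adjusted p = 0.104). Pgf measured 7.06 and 7.20 in wild type mice, against 7.67 and 7.79 in knockout mice. Kdr measured 10.63 and 10.57 against 10.28 and 9.82.

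Pdgfra and Pdgfrb each sit beside a related receptor gene, which gives a view of their chromosomal surroundings. Among the 6 nearest tested genes on each side of Pdgfra, 7 had a higher and 5 a lower mean in knockout, and 0 passed by limma, against 3 higher and 2 lower genes by an unadjusted p under 0.05 (26.5% of all genes in either direction). Its direct neighbours are Gsx2 and Kit. Gsx2 lay below background in both genotypes. Kit, the receptor for stem cell factor, measured 8.43 and 8.19 in wild type mice, against 8.09 and 7.70 in knockout mice (difference -0.42, adjusted p = 0.164). Pdgfra and Kit thus had differences of opposite sign, though neither passed. Among the 12 genes around Pdgfrb, 3 had a higher and 9 a lower mean, and limma also passed 0, or 1 higher and 2 lower with p unadjusted, a share close to the 26.5% of all genes. These splits include dim genes. Only 9 of the 12 around Pdgfrb, and 10 of the 12 around Pdgfra, had a mean above background in at least 1 genotype. With knockout replicate 1 left out the calls around both receptors changed, as did those over all genes. Cdx1 differed by -0.52 (adjusted p = 0.104). Csf1r, the macrophage growth factor receptor, differed by -0.27 (adjusted p = 0.197). Mir145a and Mir143 are separated from Pdgfrb by 7 and 8 tested genes.

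The genes whose 4 centred log2 values lay closest to those of Pdgfra were P2rx7, Gabre and Lysmd2, at Euclidean distances of 0.011, 0.012 and 0.025. Those closest to Pdgfrb were Gfi1b, Ppp1r15a and Il27ra, at 0.021, 0.022 and 0.027. Of 14226 genes above background that were compared, 6441 lay within 0.5 of Pdgfra and 9745 within 0.5 of Pdgfrb, so near profiles were common. With 4 arrays these distances describe the profiles alone.

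Markers of the cells that carry or make PDGF proteins were measured beside these genes. Fibroblast markers, the setting in which Pdgfra is known, held 5 rises and 1 fall among 20 tested, with a median of 0.29. Over all genes 1.90% passed as higher and 0.477% as lower. Of the 20 markers 14 had a higher and 6 a lower mean in knockout, beside 47.1% of all genes with a higher mean. By an unadjusted p under 0.05 (limma), 9 were higher and 2 lower, beside 12.7% and 13.8% of all genes. The fibroblast list averaged 10.05 and 10.13 in wild type mice, against 10.42 and 10.48 in knockout mice. Lum, a proteoglycan of collagen fibrils, differed by 1.70 and Tcf21, a transcription factor of mesenchyme, by 1.62 (adjusted p = 0.0147 each). Col14a1, Col1a1 and Col1a2 rose, while Ebf2 fell; the call of Col1a2 was lost without knockout replicate 2 (adjusted p = 0.0650), when 4 markers were higher and 1 lower, and 6 were higher and 2 lower without knockout replicate 1. After a further quantile normalization 3 were higher and 1 lower, with Col1a1 and Col1a2 not passing (adjusted p = 0.0647 and 0.0669), and 4 were higher and 1 lower with centred arrays and with all probe sets. Dcn, which encodes decorin, differed by 0.09 (adjusted p = 0.627) and was chosen after its values were seen.

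Pericyte markers, the setting of Pdgfrb, showed 1 rise among 17 tested, that of the potassium channel subunit gene Abcc9 (difference 0.83, adjusted p = 0.0316), with a median of 0.12. Gucy1b1, part of the nitric oxide receptor, differed by 0.57 (adjusted p = 0.0526). Of the 17 markers 10 had a higher and 7 a lower mean in knockout, and 5 were higher and 3 lower by an unadjusted p under 0.05. The lowest difference, -0.65, was that of Steap4 (adjusted p = 0.167), chosen after its values were seen. The list averaged 9.10 and 9.18 in wild type mice, against 9.31 and 9.15 in knockout mice. These groups overlapped, with the mean of knockout replicate 1 above both wild type means. For Pdgfrb, in contrast, both knockout values lay between the wild type ones. The relation of the marker lists to Pdgfrb was not tested. When knockout replicate 1 was left out, 1 pericyte marker was higher and 2 were lower. Smooth muscle markers held 3 rises among 18 tested, beside 1.90% of all genes, with a median of 0.25. The genes that rose were Myocd, Itga8 and Npnt (differences 1.01, 0.81 and 0.92). The smooth muscle list averaged 10.65 and 10.56 in wild type mice, against 10.93 and 10.82 in knockout mice. These means did not overlap, unlike the values of Pdgfrb. Of the 18 smooth muscle markers, 15 had a higher and 3 a lower mean in knockout, beside 47.1% of all genes with a higher mean. By an unadjusted p under 0.05 (limma), 7 were higher and 1 lower, beside 12.7% and 13.8% of all genes. The lowest difference of this list, -0.54, was that of Synm (adjusted p = 0.115), chosen after its values were seen.

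Endothelial markers, the setting of Pdgfb, had a median of -0.06 over 18 genes, and 0 passed by limma, against 2 higher and 2 lower genes by an unadjusted p under 0.05, a smaller share than the 26.5% of all genes. Their list averaged 9.42 and 9.59 in wild type mice, against 9.51 and 9.46 in knockout mice. Both knockout means lay between the wild type ones. The value of Pdgfb in knockout replicate 2, 8.82, lay below both of its wild type values. The relation of this list to Pdgfb was not tested. The tight junction gene Cldn5 differed by -0.73 (adjusted p = 0.0587) and Sox17 by 0.48 (adjusted p = 0.0742). Cldn5 measured 10.53 and 10.93 in wild type mice, against 10.06 and 9.94 in knockout mice.

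Markers of other tissues also differed between the mice. Urothelium markers had higher means in knockout for 23 of 23 genes, beside 47.1% of all genes. Among them Cldn8 and Trp63 passed as higher, as did 1.90% of all genes. By an unadjusted p under 0.05 (limma), 22 were higher and 0 lower, beside 12.7% and 13.8% of all genes. The list averaged 10.65 and 10.96 in wild type mice, against 11.23 and 11.58 in knockout mice. Without knockout replicate 1, 20 of these markers passed, but 1 did without knockout replicate 2, when Trp63 stood at adjusted p = 0.0593. After a further quantile normalization 0 passed by limma, with Cldn8 at adjusted p = 0.0595 and 20 higher at an unadjusted p under 0.05, and 1 passed with centred arrays and with all probe sets. The mean of the adipocyte list was 12.82 and 12.74 in wild type mice, against 12.55 and 12.06 in knockout mice, with Adipoq and Retn differing by -0.73 and -0.65. Limma passed 0 of the 14 with all mice (9 lower at an unadjusted p under 0.05, as were 13.8% of all genes), while 10 were lower without knockout replicate 1, including both of these (adjusted p = 0.00307 and 0.00553). The kidney list averaged 6.79 and 7.46 in wild type mice, against 8.52 and 6.89 in knockout mice, so knockout replicate 1 stood apart. Among the 17 kidney genes 0 passed by limma, against 2 higher and 1 lower by an unadjusted p under 0.05, a smaller share than the 26.5% of all genes; without knockout replicate 2, 11 were higher, and without knockout replicate 1, 1 was. Cubn, an endocytic receptor below background in wild type, was at least 1.75-fold higher without passing (adjusted p = 0.0762), and passed with either knockout mouse left out (adjusted p = 0.0352 and 0.000271). Nphs1 differed by -0.51 (adjusted p = 0.101). Macrophage list means lay between 8.71 and 8.77 in all mice. Of these 15 genes limma passed 0, or 1 higher and 0 lower with p unadjusted, again a smaller share than 26.5%, and Mertk differed by 0.34 (adjusted p = 0.129). The part of these tissues in the values of the 7 PDGF genes, and in those of pathway genes such as Stat5a, was not tested.

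**Figure D4:**
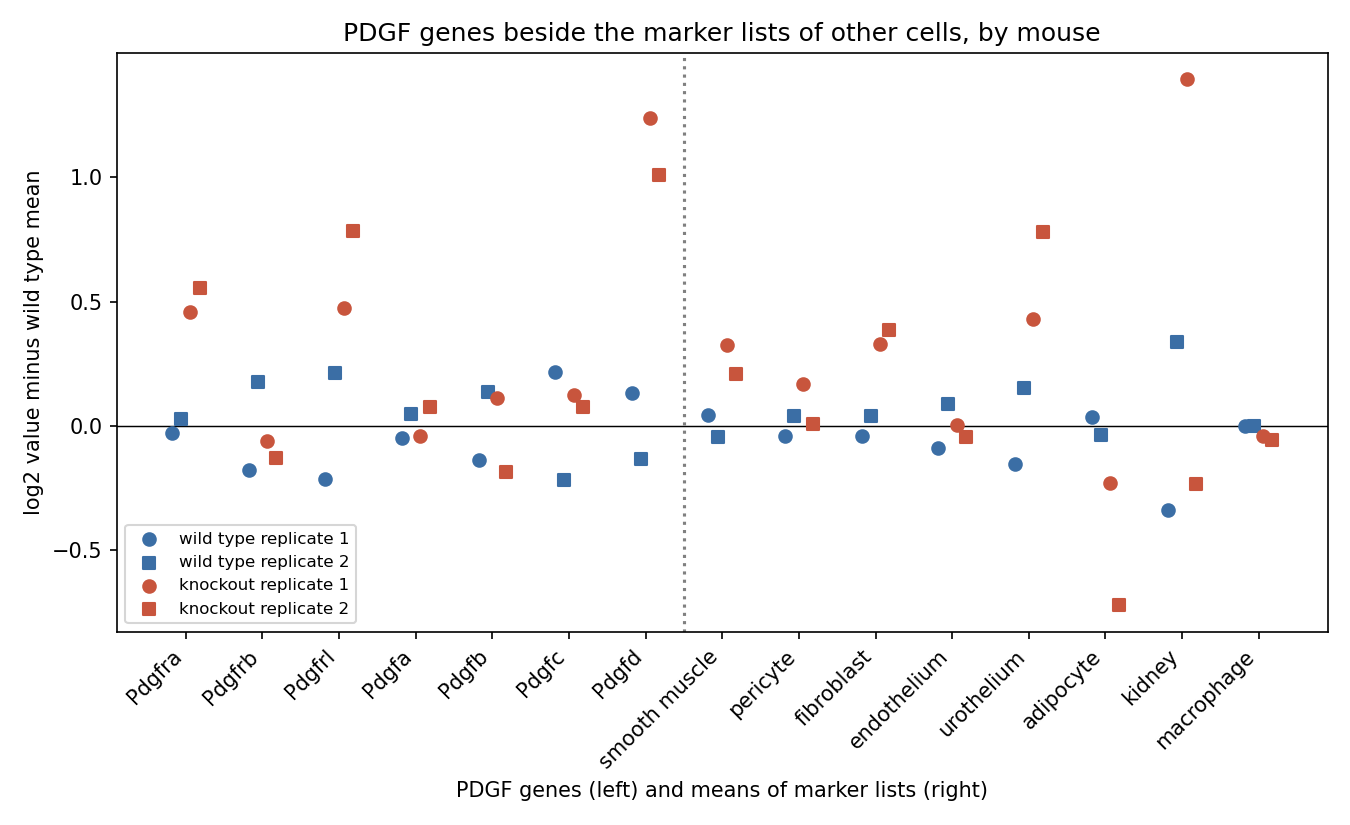
Log2 value minus the wild type mean (vertical axis) of the 7 PDGF genes and of the means of 8 marker lists (horizontal axis), with 1 point per mouse. Pdgfd lies 1.24 and 1.01 above the wild type mean in the 2 knockout mice. The kidney list lies at 1.39 in knockout replicate 1, 0.34 in wild type replicate 2 and -0.23 in knockout replicate 2.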

How the data were processed

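The deposited values are log2 expression values per probe set and array, made by the authors from 500 ng of total RNA per mouse on an Affymetrix whole-transcript array, per the labels' protocols. Per the submitters' processing notes the tools included RMA, R 2.15.0 and limma 3.12.1; RMA makes the distributions of arrays alike, which would reduce a change shared by most genes. Their genome build was not given in the sources used here. Of 23309 probe sets, 20728 had 1 symbol, 1174 several and 1407 none; the brightest with 1 symbol was used per gene, which left 19296 genes, unfiltered.

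The genotypes were compared with limma 3.58.1 under R 4.3.3 (lmFit, eBayes, Benjamini-Hochberg over all genes, threshold 0.05). The fit was tested on simulated data that drew variances from its own estimates and held no differences between tissues. Every adjusted p comes from the limma comparison of the genotypes unless an alternative is named beside it. SE is the moderated standard error of that comparison, and n is 2 mice per genotype. The 7 genes, the 5 pathway lists and the 8 marker lists were chosen with earlier results of these data known. Named genes are the 7 members, the deleted genes, the 4 of smallest p in each pathway list and 2 in each marker list among genes above background, the direct neighbours of the receptors and the 3 profiles closest to Pdgfra and to Pdgfrb. Npnt, Col14a1, Col1a1, Col1a2 and Ebf2, which passed in their lists, Dcn, Steap4 and Synm are outside this rule and were chosen after their values were seen. Promoter windows come from RefSeq (GRCm38.p6); sequences of Pdgfb, Pdgfrb and Pdgfrl are not analysed here. The alternatives covered the replicate number as a block, dim genes left out, further quantile normalization, centring, other uses of probe sets and variance models, array weights, other thresholds and leaving out each mouse.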

Additional observations from a re-analysis of the deposited data

How the results depend on the processing

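The direction and the side of the threshold held in 84 of the 98 values of the 7 genes under alternatives. Over all genes 459 passed; 1922 did with the replicate block, 902 with robust eBayes, 2299 at an adjusted p under 0.1, 214 with a further quantile normalization, 0 with no pooling of the variance (limma; 2580 at an unadjusted p under 0.05), and 0 to 1744 with 1 mouse left out. Centring each array on its median gave 245 higher and 148 lower genes, against 367 and 92. Of the 7 PDGF genes 3 passed with the replicate block and at an adjusted p under 0.1, 0 with no pooling of the variance, and 0 to 2 with 1 mouse left out. The replicate numbers do not pair the mice by the labels, and the correlation of the within-genotype differences was -0.03 across 19296 genes; the numbers are shared names only. With the replicate block the difference of Pdgfra, 0.51, reached adjusted p = 0.0407, that of Pdgfrl, 0.63, reached 0.0238, and Pdgfd stood at 0.00433. With no pooling of the variance Pdgfd, at 1.12, did not pass (adjusted p = 0.361). Pdgfa turned to -0.068 with a further quantile normalization and -0.051 with centred arrays. With 1 mouse left out the differences ranged from 0.99 to 1.26 for Pdgfd, 0.46 to 0.56 for Pdgfra, 0.42 to 0.84 for Pdgfrl, -0.27 to 0.081 for Pdgfrb, -0.040 to 0.076 for Pdgfa, -0.19 to 0.11 for Pdgfb and -0.12 to 0.32 for Pdgfc. A fit without 1 mouse assumes that the lone mouse varies like the other genotype. The fits with no pooling have 2 degrees of freedom per gene; the cause of the other changes was not tested.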

Other observations

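The genes whose centred log2 values lay closest to those of Pdgfd, by Euclidean distance over 4 arrays, were sought after its values were seen, so their higher values in knockout follow from the choice and are given with no test. The closest was Neto2, which encodes an accessory subunit of glutamate receptors, at 0.088. It measured 6.69 and 6.42 in wild type mice, against 7.81 and 7.67 in knockout mice. Fam171b, at 0.105, measured 7.83 and 7.69 against 8.95 and 8.71. Nmur2, a receptor for neuromedin U, at 0.113, measured 6.93 and 6.505 against 7.95 and 7.74. Neto2 and Nmur2 lay above background in 1 of the 2 wild type mice.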
